A study of Mus musculus with 6 samples.

Results

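The hedgehog pathway genes examined here are 9 genes, Shh, Dhh, Ihh, Ptch1, Hhip, Smo, Gli1, Gli2 and Gli3, out of 54532 genes in the count table. They were taken by gene symbol as the ligands, receptors and effectors of the pathway, without use of their counts, and each matched 1 row. RNA labelled as sciatic nerve came from 3 control mice (genotype WT) and 3 Dok6 mutant mice (genotype Dok6 KO) at postnatal day 3, 1 library per mouse. The mutants descended from floxed Dok6 mice, in which exon 3 lies between the loxP sites, crossed with EIIA-cre mice, whose recombinase acts in the early fertilized egg, so the deletion was not restricted to a cell type, and all mice were kept on a C57BL/6 background. The counts were used to ask whether the target genes of the pathway follow Dhh, the ligand that Schwann cells make.

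Hedgehog ligands are secreted proteins that bind the receptor Patched (Ptch1), which otherwise keeps the membrane protein Smoothened (Smo) inactive. Active Smo, at the primary cilium, leads the GLI transcription factors to switch on target genes, and Gli1, Ptch1 and Hhip are themselves such targets and serve as readouts of the pathway. In peripheral nerve, Dhh from Schwann cells acts on mesenchymal cells that form the perineurium, the sheath around each nerve fascicle, whereas Shh is the ligand of the notochord and floor plate that patterns the spinal cord, and Ihh is best known from growing cartilage.

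The 6 libraries held between 17699904 and 18678170 counts, so that 3 counts, taken as the smallest detectable level, corresponded to between 0.156 and 0.172 counts-per-million units (CPM, scaled by the TMM method, edgeR's trimmed mean of M-values). This floor covers counting error only. Dok6 itself, which was targeted, fell by 1.23 on the log2 scale (standard error 0.20, Benjamini-Hochberg adjusted p = 0.0118 by edgeR's quasi-likelihood method) without overlap of the genotypes; the counts include reads from exons outside the deleted one. The labelled tissue was checked against marker genes. Prx, which encodes periaxin of myelinating Schwann cells, was at 10.3, 5.45 and 3.83 CPM in control mice 1, 2 and 3 and at 28.2, 330 and 18.7 CPM in mutant mice 1, 2 and 3. Sox10, first on the Schwann cell list, was at 63.4, 42.2 and 108 CPM in control and at 91.3, 144 and 49.4 CPM in mutant mice. The genotypes overlapped for Sox10 and for S100b, the next on the list (adjusted p = 0.504 and 0.311 in edgeR's quasi-likelihood test). All 11 central neuron markers, such as Slc32a1 and Slc6a5, and all 7 astrocyte markers, such as Gfap and Aqp4, reached 1 CPM or more in all 6 libraries, with sums of the astrocyte list from 1691 to 3218 CPM. The central neuron list summed to 1245, 1403 and 1455 CPM in control mice and to 1152, 1095 and 1197 CPM in mutant mice, below every control, with Slc32a1 called lower (adjusted p = 0.0487 in edgeR's quasi-likelihood test). Skeletal muscle markers summed to at most 21.7 CPM in a control mouse and to 642, 340 and 119 in the mutants. Transcripts of central neurons, which are no markers of a peripheral nerve, were thus present in every library, and their source was not tested. In such bulk samples fewer cells of a type and less RNA per cell cannot be told apart.

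Of the 9 genes, Dhh alone passed the test, with a mean CPM in Dok6 mutant mice 14.9 times that in control mice. The target genes among the 9, Gli1, Ptch1 and Hhip, had no call. Of 13 tested further targets of a wider list, 3 were called higher, Ccnd1, Ccnd2 and Foxd1, where 8.62% of all genes were. All 3 of these calls were lost without control mouse 2. The mean level of Gli1 was 1.05 times, that of Ptch1 1.19 times and that of Hhip 1.03 times the control level, with overlap of the genotypes for each of these 3 genes. For Gli2 and Shh the lowest mutant lay above the highest control, as for 19.6% of all genes, but neither passed the test. None of the tested members was called lower.

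Dhh (ENSMUSG00000023000), the Schwann cell ligand, is encoded at chromosome 15, bases 98891152 to 98898540, of GRCm38, on the minus strand. Because it is the member that rose, the 228 bases before its start, beyond the gene ends given by GENCODE and RefSeq, are shown from RefSeq's GRCm38.p6 (chr15:98898563-98898790, minus strand), with a match to the core of the GLI binding motif (CCACCC on either strand) in capitals.
Dhh upstream: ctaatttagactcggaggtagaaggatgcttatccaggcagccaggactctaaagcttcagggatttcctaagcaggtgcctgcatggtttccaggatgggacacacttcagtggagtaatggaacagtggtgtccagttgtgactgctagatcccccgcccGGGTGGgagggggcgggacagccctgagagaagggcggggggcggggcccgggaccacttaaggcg
This core was found in 31.5% of 32851 RefSeq windows, each from 250 bases before to 50 bases after a start. The longer GLI consensus, GACCACCCA on either strand, was found in 0.253% of the windows and in none of the windows of the 7 members that have one, Dhh, Ihh, Ptch1, Hhip, Smo, Gli2 and Gli3. A match describes letters only, and the absence of a match says nothing of sites elsewhere.

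Dhh had 20, 7 and 12 counts in control mice 1, 2 and 3, or 1.15, 0.401 and 0.686 CPM. In mutant mice 1, 2 and 3 it had 86, 408 and 126 counts, or 4.46, 22.3 and 6.68 CPM. Every mutant was above every control, and mutant mouse 2 stood 4.99-fold above mutant mouse 1. Control nerves averaged 0.745 ± 0.377 CPM (SD, n = 3 mice), and mutant nerves averaged 11.1 ± 9.70 CPM (SD, n = 3 mice). This was a log2 fold change of 3.89 (standard error 0.68, 95% interval 2.33 to 5.44, adjusted p = 0.0143 in edgeR's quasi-likelihood test over 17099 genes). The increase passed both call rules, an adjusted p-value under 0.05 and the same with a log2 fold change above 2, which the study's methods use. Dhh reached 10 counts in every mutant but not in control mouse 2, and a filter of at least 10 counts in every library left it untested. Without any filter on low counts its adjusted p was 1.82e-05 in the same test. Without control mouse 2, which had the fewest Dhh counts, the log2 fold change was 3.59 and the adjusted p 0.0827, so the call was lost. Calls over all genes fell in the same fit from 1474 higher and 1028 lower to 56 and 12, and the cause was not tested. Without mutant mouse 2, which had the most, it was 2.89 with an adjusted p of 0.0216.

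Part of the exons of Dhh is also annotated as exons of Rhebl1, a small GTPase gene on the same strand, and part as exons of Gm49442 on the other strand, whose reads cannot be told apart where strand was not used in counting. Of 50-base stretches, 448 of the 4350 in the Dhh transcripts also occur in those of Rhebl1. Rhebl1 was at 8.09, 8.94 and 6.52 CPM in control and at 6.28, 6.44 and 9.49 CPM in mutant mice. Its log2 fold change was -0.09 (adjusted p = 0.812 in the same test), and the genotypes overlapped.

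**Figure D1:**
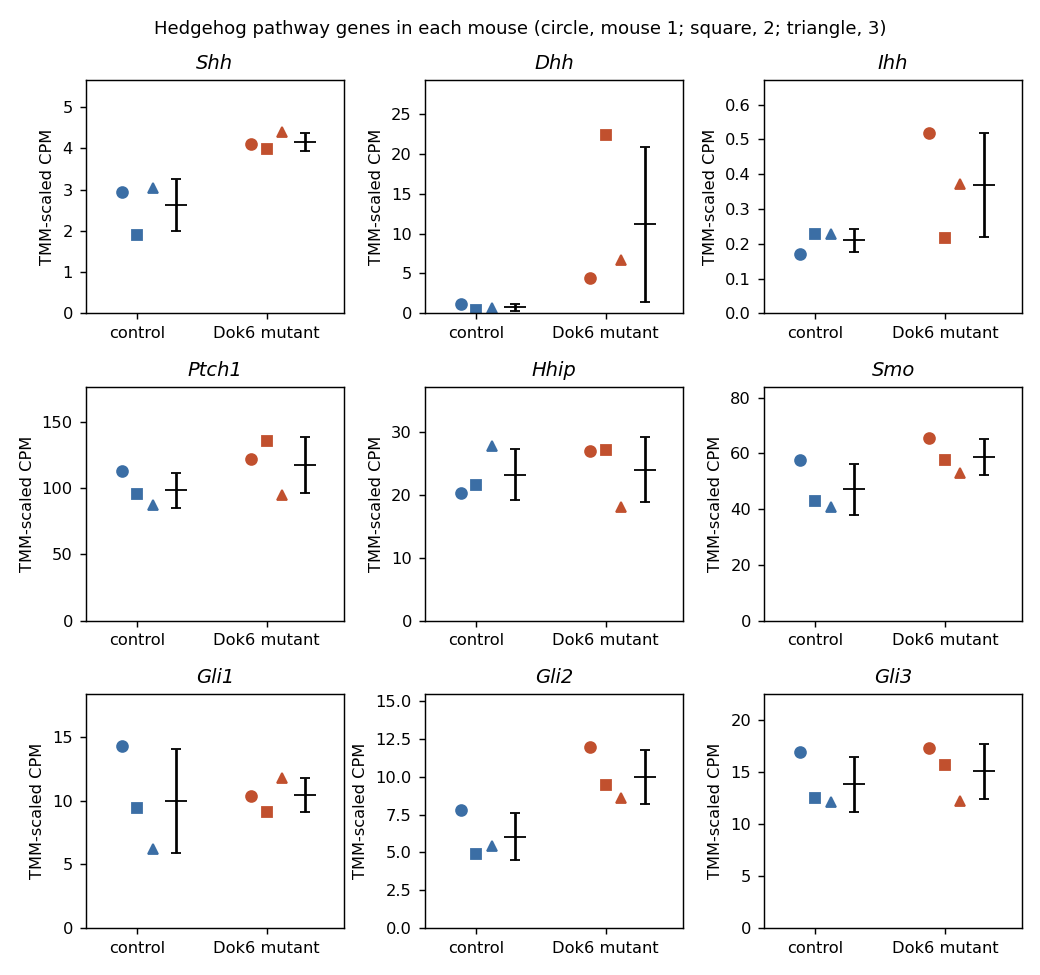
Each panel shows 1 hedgehog pathway gene, with TMM-scaled CPM on the vertical axis, control mice in blue, Dok6 mutant mice in red, and the mean with its SD (n = 3 mice) in black. The mutant values of Dhh, 4.46, 22.3 and 6.68 CPM, sit above all control values, while the ranges of Gli1, Ptch1 and Hhip overlap between the genotypes.

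The other ligands were low. Shh was at 2.93, 1.89 and 3.03 CPM in control mice 1, 2 and 3 and at 4.10, 3.98 and 4.40 CPM in mutant mice 1, 2 and 3. The lowest mutant was thus above the highest control, and the mutants lay within a factor of 1.10 of each other. The log2 fold change was 0.67 (standard error 0.24, 95% interval 0.11 to 1.22), and the adjusted p of 0.0948 in edgeR's quasi-likelihood test missed the threshold. The annotated genes 9530036O11Rik and Gm26894 on the other strand overlap exons of Shh, and the use of strand in counting is not given in the sources used here, so its reads may be mixed with theirs. Ihh, the ligand of cartilage, had 3, 4 and 4 counts in control and 10, 4 and 7 in mutant mice. These values lie near the floor of 3 counts, the gene did not pass the filter on low counts, and no fold change is given.

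The receptors and inhibitors were measured at higher levels. Ptch1, the receptor that is also a target, was at 113, 95.9 and 87.0 CPM in control and 122, 136 and 94.8 CPM in mutant mice. Mutant mouse 3 lay below 2 of the controls, and the log2 fold change was 0.25 (95% interval -0.08 to 0.58, adjusted p = 0.260 in the same test). Smo, the signal transducer, was at 57.6, 42.8 and 40.9 CPM in control and 65.7, 57.5 and 53.0 CPM in mutant mice. Control mouse 1 was among the mutants, and the log2 fold change was 0.32 (95% interval -0.01 to 0.65, adjusted p = 0.162). Without that mouse the log2 fold change of Smo was 0.49 and the adjusted p 0.0491. Hhip, a decoy that binds hedgehog ligands at the cell surface and is a target gene, was at 20.3, 21.6 and 27.8 CPM in control and 26.9, 27.1 and 18.1 CPM in mutant mice. The lowest and the highest of these values were a mutant and a control, and the log2 fold change was 0.05 (95% interval -0.38 to 0.47, adjusted p = 0.881), with a sign that turned when any of 4 mice was left out.

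Among the effectors, Gli1, the activator whose transcription is the usual readout of the pathway, was at 14.3, 9.46 and 6.18 CPM in control and 10.4, 9.16 and 11.8 CPM in mutant mice. All 3 mutants fell between the lowest and the highest control. The log2 fold change was 0.07 (standard error 0.28, 95% interval -0.56 to 0.70, adjusted p = 0.889 in edgeR's quasi-likelihood test), and it was -0.18 without control mouse 3 and -0.03 without mutant mouse 3. Exons of Arhgap9 and Gm47200 on the other strand overlap those of Gli1. Gli2, the main activator downstream of Smo, was at 7.80, 4.87 and 5.43 CPM in control and 12, 9.44 and 8.58 CPM in mutant mice. Every mutant was above every control, and the log2 fold change of 0.73 (standard error 0.22, 95% interval 0.22 to 1.24) had an adjusted p of 0.0592 in the same test. This call turned with the procedure, since the adjusted p of Gli2 was 0.0258 with DESeq2, 0.0369 without a filter on low counts and 0.0422 without control mouse 1. Gli3, which acts mostly as a repressor, was at 16.9, 12.5 and 12.1 CPM in control and 17.3, 15.7 and 12.2 CPM in mutant mice. The genotypes of Gli3 overlapped, with a log2 fold change of 0.12 (95% interval -0.30 to 0.55, adjusted p = 0.674).

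In GRCm38, Shh lies on chromosome 5 (28456815 to 28467256), Ihh on chromosome 1 (74945315 to 74951672), Ptch1 on chromosome 13 (63508328 to 63573598), Hhip on chromosome 8 (79965851 to 80058006), Smo on chromosome 6 (29735503 to 29761365), Gli1 on chromosome 10 (127329882 to 127341974), Gli2 on chromosome 1 (118834132 to 119053619) and Gli3 on chromosome 13 (15463235 to 15730026). Of the stretches of 50 bases in their transcripts, 87 of 5571 of Smo also occur in Gm4066 and 32 of 14498 of Ptch1 in other genes, while Shh, Ihh, Hhip, Gli1, Gli2 and Gli3 share none.

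Counted over the list, 8 of the 9 members were tested, Ihh being the exception, and all 8 log2 fold changes were above 0, with a median of 0.28 against 0.01 for all genes tested. With an adjusted p-value under 0.05, 1 member was higher, where 8.62% of all genes were, and no member was lower, where 6.01% were; 3 members, Dhh, Shh and Gli2, had an unadjusted p-value under 0.05, each with the higher level in mutant mice, where 18% of all genes had one in that direction and 33.6% in either. DESeq2 also called no member lower. When a log2 fold change above 2 was also required, 1 member was called higher, against 1.08% of all genes. For 3 of the 8 tested members every mutant was above every control, which held for 19.6% of all genes, and for none was every mutant below every control, which held for 18.7%. Beside Dhh at 3.89, the other tested members had log2 fold changes between 0.05 and 0.73.

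Levels of different genes were compared per length, in transcripts-per-million units (TPM), from the counts and gene lengths. In control mice Smo was highest at 29.5 ± 6.48 TPM (SD, n = 3 mice), followed by Ptch1 at 24.5 ± 3.95 (SD, n = 3 mice), and the values of these 2 genes overlapped. Hhip at 8.97, Gli1 at 7.07 and Gli3 at 5.08 TPM came next, each overlapping its neighbour, and then Shh at 3.23 and Gli2 at 3.10, which overlapped each other. Dhh was next to last in control mice at 0.599 ± 0.316 TPM (SD, n = 3 mice), above Ihh at 0.242. In mutant mice Dhh was the fourth at 9.30 ± 7.88 TPM (SD, n = 3 mice), between Hhip at 9.84 and Gli1 at 7.81, and its range from 3.81 to 18.3 TPM overlapped those of both. The receptor and the targets were thus well above the Schwann cell ligand in control mice, and Shh was the highest of the 3 ligands there. Central neuron and astrocyte markers were present in every library. Which cells gave these levels, and those in the ratios below, was not tested.

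**Figure D2:**
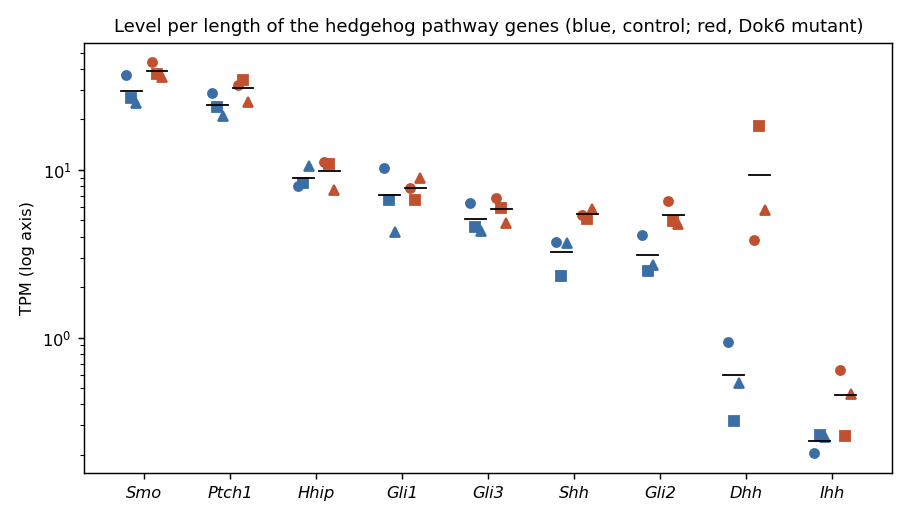
TPM on a log axis of the 9 genes in order of their control mean, with control mice in blue, Dok6 mutant mice in red and the mean of 3 mice as a line. Dhh moves from 0.599 TPM in control to 9.30 TPM in mutant mice.

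To compare targets with the ligand directly, the log2 ratio of each target to Dhh was taken in every library, with 0.5 CPM added to both. The log2 ratio of Gli1 to Dhh was 3.17, 3.47 and 2.49 in control mice 1, 2 and 3 and 1.14, -1.24 and 0.77 in mutant mice 1, 2 and 3. Every mutant was below every control, and the means differed by -2.82 (two-sided exact permutation test, n = 3 mice per genotype, p = 0.1, adjusted over the 3 ratios p = 0.1). Control mice had more Gli1 than Dhh in CPM in all 3 libraries, and mutant mouse 2 had more Dhh than Gli1. The ratio of Ptch1 to Dhh differed by -2.71 and that of Hhip to Dhh by -2.91, again with no overlap (exact permutation p = 0.1 for each), and 0.1 is the smallest p that 3 mice against 3 allow. The fall of all 3 ratios follows from the rise of Dhh, their shared denominator, beside targets without a call. They are therefore no separate test of whether the targets follow Dhh. For the change of each gene by genotype, not of the ratios, the 95% intervals had upper ends at 1.62-fold for Gli1, 1.49-fold for Ptch1 and 1.39-fold for Hhip. These were below the lower end for Dhh, 5.03-fold.

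**Figure D3:**
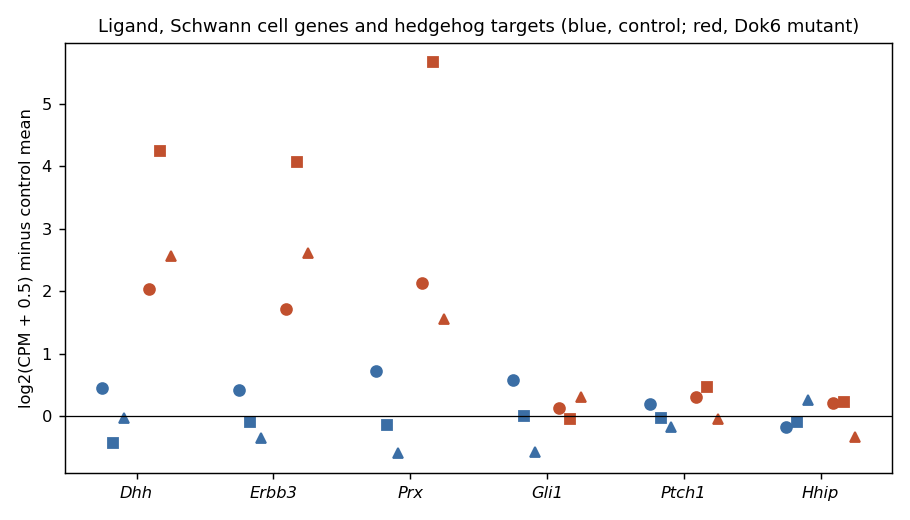
Points show log2(CPM + 0.5) minus the control mean for each mouse (circle, mouse 1; square, mouse 2; triangle, mouse 3), with control mice in blue and Dok6 mutant mice in red. Dhh, Erbb3 and Prx rise in all 3 mutants, most in mutant mouse 2, and the genotypes overlap for the targets Gli1, Ptch1 and Hhip.

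Among 15675 tested genes with a mean of at least 1 CPM, the profile nearest to that of Dhh over the 6 libraries was that of Erbb3, the neuregulin receptor of Schwann cells, with a root mean square difference of 0.230 in log2 units. Isl2, Sema3b, Kcnk18 and Tmem45b followed at 0.324 to 0.400, and Isl2 and Kcnk18 are known as genes of neurons. Erbb3 was at 3.56, 2.35 and 1.89 CPM in control and at 9.39, 49.9 and 18 CPM in mutant mice, in the same order among the mutants as Dhh. Of the other members, Gli2 was the closest to Dhh by this measure, in place 1371 at 1.35. The genes nearest to Gli1 were 2610035F20Rik, Robo4, Adgrf5, Arid3a and Megf10, at 0.0634 to 0.118. The log2 fold changes of these 5 genes lay between -0.03 and 0.28. Robo4 and Adgrf5 are genes of endothelial cells, and which cells gave Gli1 was not tested.

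The list of 15 Schwann cell markers summed to 497, 319 and 1880 CPM in control mice and to 1618, 7015 and 678 CPM in mutant mice 1, 2 and 3. Of these genes, 8 were called higher, none was called lower, and 7 had every mutant above every control, among them Pmp22, Prx, Gfra3 and Cdh19. Of all genes, 8.62% were called higher and 19.6% had every mutant above every control. Some genes of this list, such as Sox10, S100b, Mbp and Erbb3, are also expressed by the oligodendrocyte lineage, whose own list of 8 markers summed to between 370 and 832 CPM in control and between 409 and 1351 CPM in mutant mice. Relative to the summed Schwann cell markers, the log2 ratio of Dhh was -8.24, -8.47 and -10.63 in control and -8.35, -8.27 and -6.56 in mutant mice. The genotypes overlapped and the means differed by 1.39 (two-sided exact permutation test, n = 3 mice per genotype, p = 0.3). The size of this difference depended on the markers, and on the pseudocount, since it was 2.56 relative to Sox10 alone and 1.92 with 0.1 CPM added, without overlap of the genotypes in either case (exact permutation p = 0.1 for each, the smallest possible), and 0.17 (exact permutation p = 0.7) relative to the list without the genes shared with that lineage, a list chosen after the data were seen.

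Markers of other cell types also differed by genotype beside Dhh. Of all genes tested, 8.62% were called higher and 6.01% lower. Of 11 markers of dorsal root ganglion (DRG) neurons in the table, 10 were called higher, with sums of 220 to 260 CPM in control mice and of 417, 1063 and 988 CPM in mutant mice 1, 2 and 3. Of 10 nerve fibroblast markers, 5 were called higher and none lower, with sums of 372 to 1210 CPM in control and 2002 to 3154 CPM in mutant mice. Of 9 perineurial markers, such as Slc2a1 and Cldn1, none passed the test in edgeR's quasi-likelihood fit, with sums of 175 to 312 CPM in control and 236 to 309 CPM in mutant mice. Slc2a1 and Tjp1 had the highest levels of this list in every library and so weigh most in its sum. Single log2 fold changes ran from -0.47 for Perp to 1.75 for Krt19, with Cldn1 at 0.89 (adjusted p = 0.059 in the same fit). Markers of the floor plate and ependyma, where Shh is made in the spinal cord, summed to 550 to 910 CPM in control and 515 to 700 CPM in mutant mice. Cartilage markers, beside Ihh, summed to 69.7 to 105 CPM and 76.2 to 192 CPM, with Col2a1 and Acan above 1 CPM in every library. Epidermal markers, a further site of Shh, summed to 24.2 to 25.8 CPM and 18.3 to 27.4 CPM, with Krt14 under 1 CPM throughout, Krt5 at 4.67 CPM in mutant mouse 1 and under 1 CPM in the other libraries, and Krt10 and Krt1 above 5 CPM in every library. The endothelial list, with 2 of 6 genes called higher, summed to 150 to 249 CPM in control and 258 to 352 CPM in mutant mice, and the list of smooth muscle and pericytes to 148 to 234 and 247 to 516 CPM. The part of these cell types in the change of Dhh, and in the levels of Shh and Gli2, was not tested.

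A wider list of 46 genes of the pathway was read in the same fit, and all but Foxl1, which had at most 5 counts in control and 7, 20 and 13 in mutant mice, were tested. Its median log2 fold change was 0.06, against 0.01 for all genes, with 3 genes called higher, 2 called lower (8.62% and 6.01% of all genes were) and 14 of the 45 tested at an unadjusted p-value under 0.05, close to the 33.6% of all genes. The 6 genes of ligand processing and release had no call. Disp2, a relative of the transporter Disp1 that frees ligands from the cell, had the highest level of these, with a log2 fold change of -0.18 (adjusted p = 0.198), and Disp1 had one of 0.36 (adjusted p = 0.153). Every mutant was above every control for Disp1 and below every control for Disp2 and for Hhat, the acyltransferase of the ligands, at -0.29. Of all genes, 19.6% had every mutant above every control and 18.7% had every mutant below. Of the 8 coreceptors and binding proteins none was called, and Gpc3, a glypican that binds hedgehog ligands and the highest of them in level, had a log2 fold change of 0.45 (adjusted p = 0.134). Gpc3 was called higher without control mouse 1. The ligand coreceptors Cdon, Boc and Gas1 had log2 fold changes of 0.01, 0.54 and 0.33, and Boc was called higher with DESeq2, without a filter and without mutant mouse 3.

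Of the 18 regulators in the cilium and cytoplasm, 2 were called lower and none higher, where 6.01% and 8.62% of all genes were. Prkacb, a catalytic subunit of protein kinase A, which marks GLI proteins for processing into repressors, was at 581, 623 and 579 CPM in control and 435, 423 and 469 CPM in mutant mice. The genotypes did not overlap for Prkacb, and its log2 fold change of -0.43, with a standard error of 0.08, had an adjusted p of 0.0188. Cul3, a scaffold of the ubiquitin ligase that works with Spop on GLI proteins, was at 208, 231 and 226 CPM in control and 163, 167 and 170 CPM in mutant mice. Its log2 fold change was -0.41 (adjusted p = 0.0150), and both calls were lost without control mouse 2, mutant mouse 1 or mutant mouse 2. The GLI inhibitor Sufu had a log2 fold change of 0.23 (adjusted p = 0.258). Stk36, Evc and Evc2, which act in the cilium or on Smo and GLI proteins, had log2 fold changes of 0.71, 0.74 and 0.41 with adjusted p-values of 0.0533, 0.0667 and 0.0902 in edgeR's quasi-likelihood test. Stk36 was called higher with DESeq2, with limma voom and without a filter on low counts, and Evc with DESeq2, without a filter and without mutant mouse 3. The kinases Csnk1a1 and Gsk3b, which phosphorylate GLI proteins, had log2 fold changes of -0.29 and -0.22 with adjusted p-values of 0.0667 and 0.0961, and Csnk1a1 was called lower with DESeq2 and without mutant mouse 3. In this role 5 of 18 genes had every mutant below every control and 4 had every mutant above, where 18.7% and 19.6% of all genes did.

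Of the 14 further target genes, 13 were tested, 3 were called higher and none lower, where 8.62% and 6.01% of all genes were. Ccnd1, which encodes cyclin D1 of the cell cycle, was at 15.5, 12.8 and 14.2 CPM in control and 40.8, 64.8 and 31.2 CPM in mutant mice. Every mutant was above every control, and the log2 fold change was 1.68 (95% interval 1.12 to 2.25, adjusted p = 0.00958). Ccnd2, which encodes cyclin D2, was at 60.7, 40.2 and 51.5 CPM in control and 113, 102 and 80.9 CPM in mutant mice, a log2 fold change of 0.96 (adjusted p = 0.0142). Foxd1, a forkhead factor, was low, at 1.89, 0.573 and 0.686 CPM in control and 2.44, 5.84 and 4.93 CPM in mutant mice. The log2 fold change of Foxd1 was 2.06 (adjusted p = 0.0305), and the call was lost without control mouse 2, control mouse 3 or mutant mouse 2. All 3 calls were lost without control mouse 2, when the adjusted p-values in edgeR's quasi-likelihood test were 0.0630 for Ccnd1, 0.0699 for Ccnd2 and 0.123 for Foxd1. Among the targets without a call, Osr1 had every mutant above every control, with a log2 fold change of 1.11 (adjusted p = 0.0594). It was called higher with DESeq2, with limma voom, without a filter on low counts and without control mouse 1. Olig2 had a log2 fold change of 0.63 (adjusted p = 0.147), and was called higher without a filter and without control mouse 3. Foxf1 and Foxf2, targets in mesenchyme, had log2 fold changes of -0.11 and -0.10, and Nkx2-2, a target in the ventral spinal cord, had one of 0.09.

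**Figure D4:**
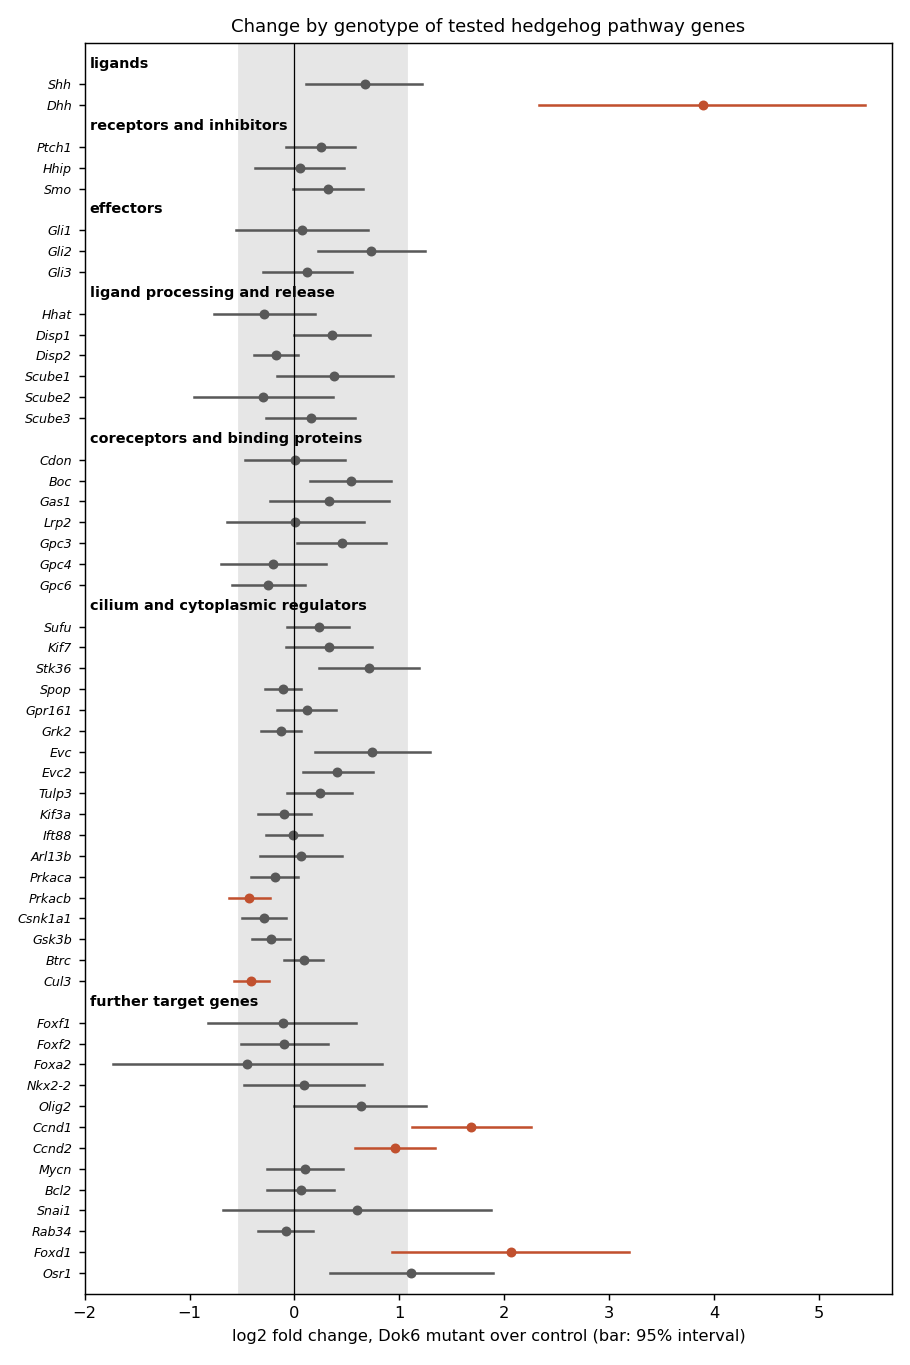
Log2 fold change of Dok6 mutant over control mice with its 95% interval for tested genes of the pathway, by role, with genes at an adjusted p-value under 0.05 in red and the range that holds the middle 90% of all tested genes, -0.53 to 1.07, in grey. Dhh at 3.89 lies farthest to the right, and Gli1, Ptch1 and Hhip lie near 0.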

How the data were processed

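RNA labelled as sciatic nerve of 3 control and 3 Dok6 mutant mice was analysed, 1 library per mouse. The authors deposited counts, the whole number of reads on each gene, without normalization, together with a gene length in bases, and their processing notes name mm10. The aligner, the counting tool and the use of strand are not given in the sources used here. The labels name a NEBNext Ultra kit and the methods its directional version.

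The quasi-likelihood test of edgeR 4.0.16, run in R 4.3.3, was applied to the counts (filterByExpr, TMM, glmQLFit and glmQLFTest, no block) over 17099 genes, with Benjamini-Hochberg adjustment and a call at an adjusted p-value under 0.05. Standard errors were derived from the F statistic, and 95% intervals from them with the test's degrees of freedom. TPM were computed from the counts and deposited lengths. Ratios were compared with a two-sided exact permutation test of scipy 1.17.1. Gene positions came from GENCODE M21, which holds 54495 of the 54532 identifiers. The alternatives were DESeq2 1.42.0, voom of limma 3.58.1, RLE and upper-quartile scaling, other filters, a replicate block, another pseudocount, another marker set and each mouse left out. The procedures were tested on simulated data. A few genes of the lists enter counts and sums but are not reported here by name.

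Named genes were the members, called genes of the wider list with the highest gene of each role without a call, the 5 profiles nearest to Dhh and to Gli1, and the first 2 markers of lists. Other genes named from the wider list, and markers beyond the first 2 of a list, such as Prx and Pmp22, were picked after their values were seen. Members and lists were chosen with earlier results of these data known. All pairs of libraries differed by more than sampling noise (chi-square over its degrees of freedom at least 8.86). The controls are described as littermates, but which mice share a litter is not given, and p-values measure the spread between these mice.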

Additional observations from a re-analysis of the deposited data

How the results depend on the processing

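Dhh was higher under all 12 alternatives that tested it, with log2 fold changes from 2.89 to 4.34, and its adjusted p was above 0.05 in only 1, without control mouse 2. A filter of at least 10 counts in every library left Dhh untested, and the count of members called higher was then 0. It was 2 with DESeq2 and 2 without a filter, Gli2 being added, and between 0 and 3 with single mice left out. No member was called lower under any alternative. The 3 genes of the wider list called higher became 7 with DESeq2, 5 with limma voom, 8 without a filter, 1 with the fold change threshold of 2, and between 0 and 5 with single mice left out. The 2 called lower became 0 with the threshold of 2 and between 0 and 3 with single mice left out.

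The replicate numbers share no stated litter, and deviations of same-numbered mice from their genotype mean had correlations of -0.00781, -0.168 and -0.243 across genes, so they do not pair the mice. With a replicate block, Dhh had a log2 fold change of 3.57 (adjusted p = 0.0458 in edgeR's quasi-likelihood test), 2 genes of the wider list were called higher and 0 lower, and across all genes 432 were called higher and 130 lower. The sign of Hhip turned without control mouse 1 (-0.04), control mouse 2 (-0.00), mutant mouse 1 (-0.04) and mutant mouse 2 (-0.05), and that of Gli1 without control mouse 3 (-0.18) and mutant mouse 3 (-0.03). With single mice left out, the log2 fold change of Hhip reached at most 0.22 and that of Gli1 at most 0.42. The differences of the target to Dhh log2 ratios, which share the rise of Dhh, kept their sign under all alternatives run. With a pseudocount of 0.1 CPM that of Gli1 to Dhh was -3.34. Without mutant mouse 2 the differences shrank to -2.09 for Gli1, -2.18 for Ptch1 and -2.36 for Hhip. The difference of Dhh to Schwann cell markers was between 0.63 and 1.82 with single mice left out. Depth limits Ihh and, in control mice, Dhh, which had 7 to 20 counts.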
